A study of Mus musculus with 33 samples.

Results

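Binding of Wdr5 was set against binding of Menin in growing C2C12 cells, a mouse myoblast line that fuses into myotubes when serum is withdrawn. The members were the samples labelled Wdr5 or Menin in myoblasts, 3 replicates of Wdr5 and 2 of Menin, which is 5 of the 33 samples of the series, together with 1 pooled peak list per factor. Both groups were myoblasts of the same line, with no genetic change named in their labels, held in medium with 10% fetal bovine serum, collected at about 40% confluency, and fragmented by sonication. They differed in the antibody used for chromatin immunoprecipitation and sequencing (ChIP-seq), a method that lists the stretches of DNA pulled down with a protein as peaks. The Wdr5 antibody was a gift from another laboratory and the Menin antibody was commercial, per the labels. The labels describe 1 cell line throughout and name no separate culture for each replicate, so the p-values below reflect only how far these lists spread, which may be technical. Peak lists hold no expression values, and the identity of the cells was therefore not checked against marker genes.

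Wdr5 is a WD-repeat scaffold protein and a core subunit shared by the MLL and SET1 complexes, the enzymes that methylate lysine 4 of histone H3 (H3K4). Menin is a subunit of only some of those complexes, the ones built around MLL1 or MLL2, and takes part in bringing them to chromatin. A site bound by a Menin-containing MLL complex should thus hold both proteins, while Wdr5 may also be present with the MLL3, MLL4 or SET1 enzymes, which lack Menin. The comparison asks how far the 2 maps coincide, and which other chromatin proteins of the series lie where they do.

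Both pooled lists were long, but few of their peaks were found again in single replicates. On the 19 autosomes, the pooled Wdr5 list held 58123 peaks with a median width of 609 bp and covered 45.2 Mb. The pooled Menin list held 68934 peaks with a median width of 658 bp and covered 68.1 Mb. A pooled peak was counted as found in a replicate when it overlapped a peak of that replicate list by at least 1 bp. By that measure 48298 Wdr5 peaks (83.1%) and 48951 Menin peaks (71.0%) were in no replicate list. In 2 or more lists were 4881 Wdr5 peaks, 2571 of them in all 3 lists, and 8641 Menin peaks. Those sets are called replicated below, and the rule is stricter for Menin (2 of 2 lists) than for Wdr5 (2 of 3). The pooled list was made by the authors from the same samples, so a peak of a replicate and a pooled peak over it are not independent.

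The Wdr5 replicate lists were shorter than the Menin ones. The 3 Wdr5 lists held 9319, 4981 and 5024 autosomal peaks (6441 ± 2492, mean ± SD, n = 3) and the 2 Menin lists 22868 and 15648 (19258 ± 5105, n = 2). The groups did not overlap, and the 10 possible arrangements of the labels allow no two-sided p below 0.2, which is the value found (exact permutation test, difference -12817 peaks). Wdr5 replicate 1 stood apart from replicates 2 and 3 in length. It was also the list with the largest share of peaks outside its own pooled list, 10.2% against 3.93% and 3.13% for the other Wdr5 lists and 7.71% and 4.02% for the Menin lists. Without it, the difference in length was -14256 peaks. The lists carry no read counts, so the sequencing depth behind them is unknown, and neither depth nor the quality of the antibodies could be set beside these lengths.

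Menin peaks were also the wider ones. Median widths were 640, 584 and 590 bp in the Wdr5 lists and 685 and 716 bp in the Menin lists, which did not overlap (difference -95.8 bp, exact permutation test, two-sided p = 0.2, the smallest possible). Covered length was 6.77, 3.19 and 3.27 Mb for Wdr5 and 22.1 and 15.4 Mb for Menin. The contrast was strongest at the broad end. Of the pooled Menin peaks, 675 were at least 5 kb wide and the widest reached 48033 bp, against 24 pooled Wdr5 peaks and a widest of 14281 bp. In the single lists, peaks of that width numbered 114 and 89 for Menin and 0 in each of the 3 Wdr5 lists.

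The share of a list that met the other factor's pooled list was higher for Wdr5. It was 72.4%, 84.8% and 84.5% of the peaks of Wdr5 replicates 1, 2 and 3, and 47.4% and 59.9% of those of Menin replicates 1 and 2. Every Wdr5 value lay above both Menin values (80.6 ± 7.10% against 53.7 ± 8.82%, exact permutation test, two-sided p = 0.2, the smallest possible). The gap of 26.9 percentage points was smaller among the widest peaks. When each list was reduced to its 4981 widest peaks, the shares were 82.0%, 84.8% and 84.6% for Wdr5 and 80.7% and 81.5% for Menin. The gap was then 2.67 points, with the same order of the groups and the same exact p. The peaks kept in this way had medians of 860, 584 and 592 bp for Wdr5 and 1798 and 1490 bp for Menin, so that length and width changed together and their parts cannot be told apart. Against replicated peaks of the other factor, the whole lists gave 47.7%, 62.6% and 62.6% for Wdr5 and 19.8% and 27.7% for Menin.

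**Figure D1:**
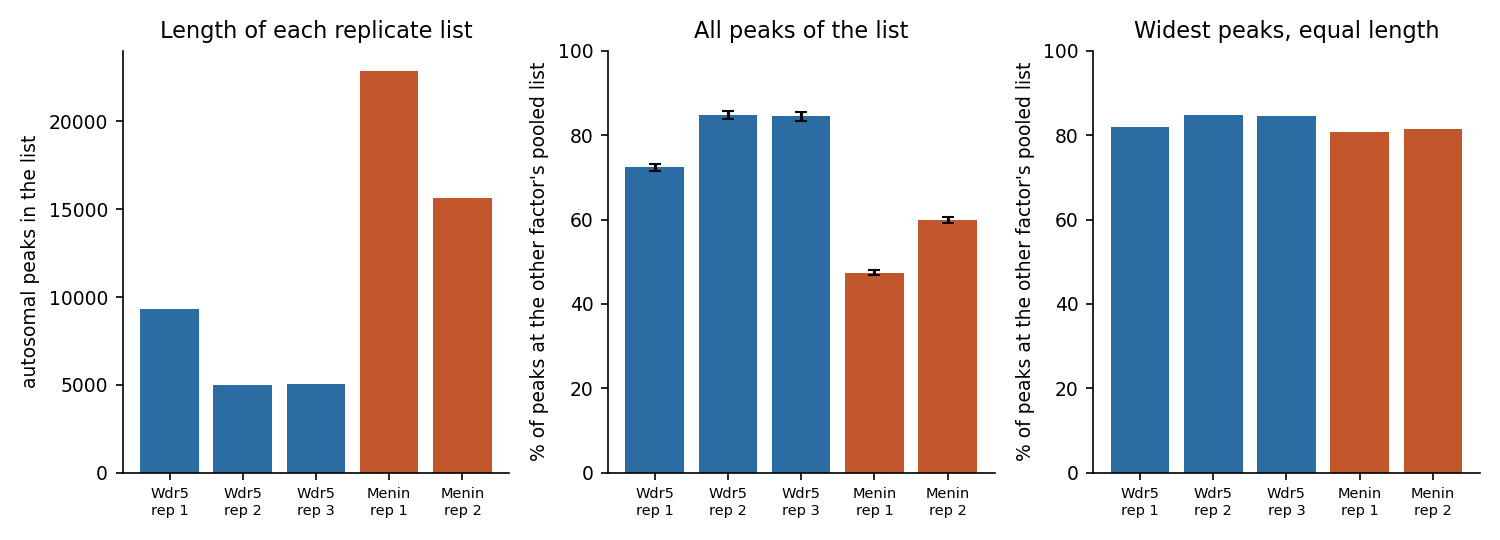
Bars give, for the 3 Wdr5 lists (blue) and the 2 Menin lists (orange), the number of autosomal peaks (left), the percentage of peaks that overlap the other factor's pooled list (middle, with exact binomial 95% intervals), and the same percentage for the 4981 widest peaks of each list (right). The Menin lists are longer and have lower shares, and at equal length all 5 shares lie between 80.7% and 84.8%.

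Whether lists of 1 factor resembled each other more than they resembled lists of the other factor depended on how likeness was measured. Replicates of Wdr5 shared 72.3% (1 and 2), 71.2% (1 and 3) and 61.1% (2 and 3) of the shorter list, and the Menin replicates 70.2%. Between factors, 67.6% and 67.2% of Wdr5 replicate 2 and 68.1% and 66.9% of Wdr5 replicate 3 lay at Menin replicates 1 and 2. Those 4 values were above the 61.1% that Wdr5 replicates 2 and 3 shared with each other, though the Menin lists met were much longer than either Wdr5 list. For Wdr5 replicate 1 the shares were 56.5% and 49.9%. The mean was 68.7% within and 62.7% between factors (exact permutation test over 10 assignments of the labels, one-sided p = 0.3), and without Wdr5 replicate 1 the gap turned to -1.76 points.

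With lists of equal length the factors separated. The 4981 widest peaks of each list shared 54.3%, 54.9% and 60.9% between Wdr5 replicates and 67.1% between Menin replicates, and 37.3% to 39.4% between factors. All 4 pairs within a factor were above all 6 pairs between factors (exact permutation test, one-sided p = 0.1, the smallest possible). The kept peaks had medians of 860, 584 and 592 bp for Wdr5 and 1798 and 1490 bp for Menin. Length and width thus changed together here too, and their parts cannot be told apart.

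**Figure D2:**
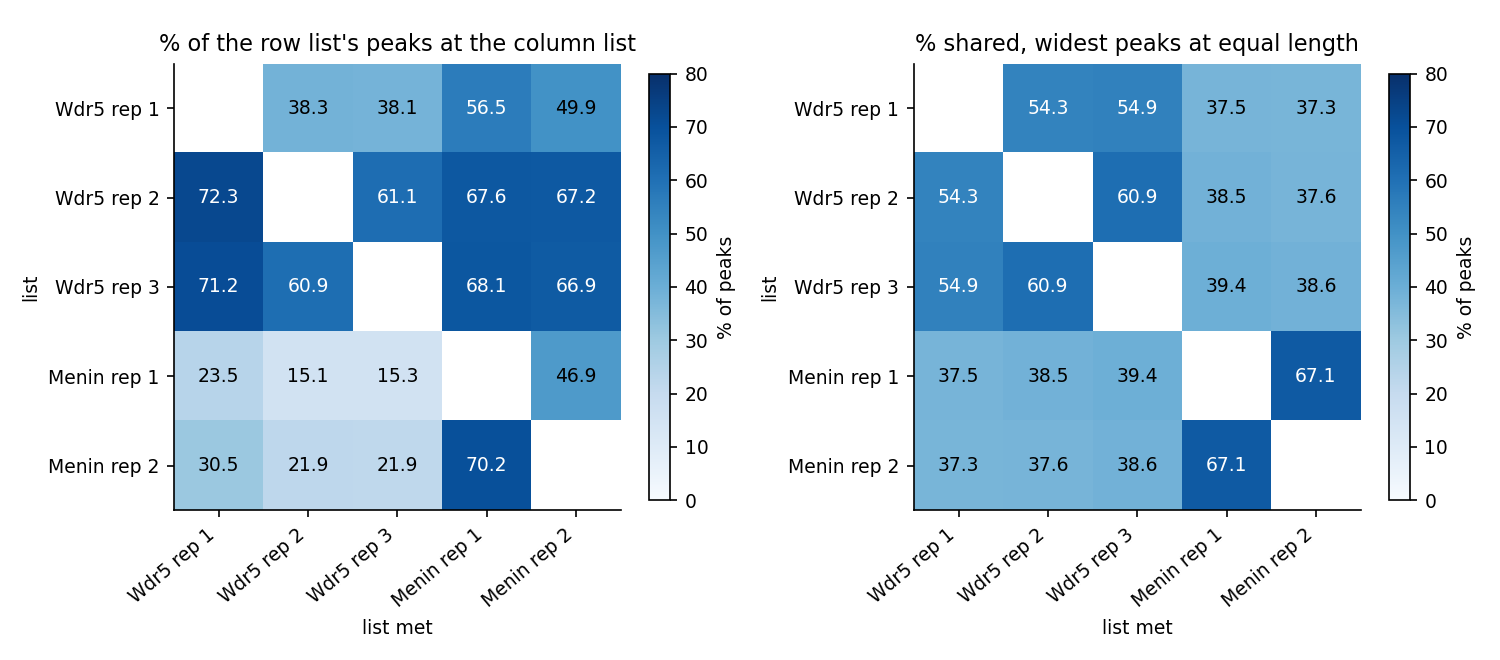
Each cell gives the percentage of peaks shared by a pair of replicate lists, for all peaks of the row list (left) and for the 4981 widest peaks of each list (right). On the left, Wdr5 replicates 2 and 3 share more with either Menin list, both much longer, than with each other. On the right, the values within a factor (54.3% to 67.1%) all exceed those between factors (37.3% to 39.4%).

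In the full pooled lists most peaks of either factor had no partner. Of the Wdr5 peaks, 17029 of 58123 (29.3%, exact binomial 95% interval 28.9 to 29.7) overlapped a Menin peak. Of the Menin peaks, 16657 of 68934 (24.2%, 23.8 to 24.5) overlapped a Wdr5 peak. Shared bases were 35.7% of the bases under Wdr5 and 23.7% of those under Menin. Intervals cover counting error only, and peaks of 1 list are not independent replicates. Shared peaks were the wider ones, with medians of 965 bp against 559 bp for Wdr5 and 1293 bp against 599 bp for Menin.

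The replicated peaks gave a different picture, with most Wdr5 sites at Menin. Of the 4881 replicated Wdr5 peaks, 3221 (66.0%, 64.6 to 67.3) overlapped a replicated Menin peak. Of the 8641 replicated Menin peaks, 3248 (37.6%, 36.6 to 38.6) overlapped a replicated Wdr5 peak. Against the full list of the other factor the shares were 89.2% for replicated Wdr5, which left 525 peaks without a partner, and 77.2% for replicated Menin, which left 1971. With the Menin set reduced to its 4881 widest peaks, which changes both number and width, 44.6% of Wdr5 and 43.7% of Menin peaks were shared. The Menin share was also 22.8% when Menin peaks needed only replicate 1 for support (replicate 2 left out). Most replicated Menin peaks therefore met Wdr5 somewhere in its pooled list, but fewer met a Wdr5 peak that 2 replicates held.

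Sharing was higher with each further replicate list that held a peak. Menin lay at 19.6% of the Wdr5 peaks found in no replicate list, at 64.8% of those in 1 list, at 85.4% of those in 2 and at 92.7% of those in 3. For a replicated Menin peak the series was 6.06%, 36.0%, 59.2% and 72.1%. Wdr5 lay at 12.5% of the Menin peaks found in no replicate list, at 34.2% of those in 1 and at 77.2% of those in 2. For a replicated Wdr5 peak it was 1.13%, 8.92% and 37.6%. No 2 neighbouring intervals overlapped in any of the 4 series, though they cover counting error only and peaks are not independent replicates. Peak width moved with the number of lists, from a median of 564 bp to 1137.5, 1449 and 1595 bp for Wdr5 and from 567 bp to 970 and 2329 bp for Menin.

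**Figure D3:**
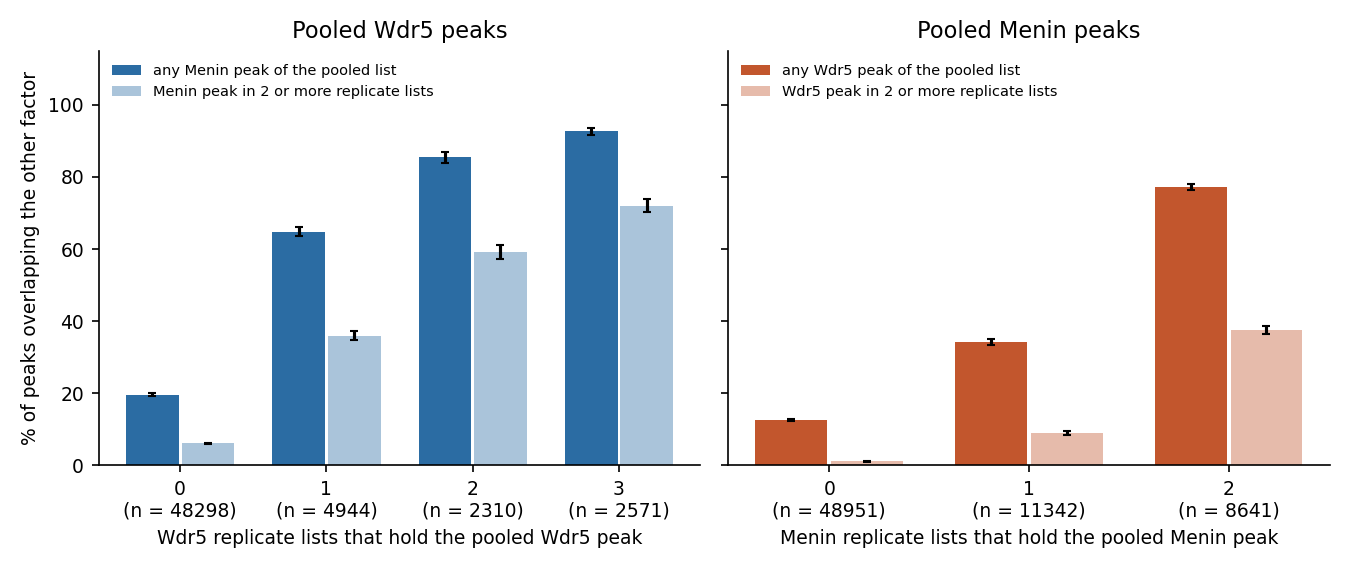
Bars give the percentage of pooled Wdr5 peaks (left) and pooled Menin peaks (right) that overlap the other factor, by the number of replicate lists that hold the peak, with exact binomial 95% intervals. Dark bars count any peak of the other factor's pooled list and light bars only its replicated peaks, and both are higher with each further list.

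Width alone was related to sharing too. In the full Wdr5 list 15.5% of peaks under 500 bp, 66.3% of peaks of 1 to 2 kb and 88.0% of peaks of 2 to 5 kb met Menin. In the full Menin list the same classes met Wdr5 in 11.3%, 39.6% and 75.3% of cases. Of the 47 Menin peaks of 10 kb or more, 46 (97.9%) met Wdr5, with a mean of 3.81 separate Wdr5 peaks each and 48.2% of their bases under Wdr5. Among replicated peaks the slope was smaller but in the same direction, from 50.2% (500 to 1000 bp) to 76.3% (2 to 5 kb) for Wdr5 and from 22.0% to 42.8% for Menin. Of the 47 replicated Menin peaks of 10 kb or more, 31 (66.0%) met a replicated Wdr5 peak. They met a mean of 1.28 such peaks each, over 26.1% of their bases. The broadest Menin peaks thus met several narrower peaks of the pooled Wdr5 list on average, but fewer replicated ones.

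The shape of single shared sites showed the same nesting. Among 3038 replicated sites where 1 Wdr5 peak met 1 Menin peak, the Menin peak was the wider in 86.1%, by a median factor of 1.58, and the centres were a median of 411 bp apart. Of the shared replicated Wdr5 peaks, 55.1% lay wholly inside Menin peaks, while 5.11% of the shared replicated Menin peaks lay wholly inside Wdr5 peaks. The peaks of the pooled lists were wider than those of the replicates that support them. For Wdr5, replicate peaks at replicated sites had medians of 781.5, 606 and 617 bp, against 1526, 1546 and 1562 bp for the pooled peaks they met. For Menin the medians were 952 and 825 bp against 2329 bp.

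The overlap was local. Menin covered 87.7% of the centres of Wdr5 peaks found in 3 lists, 60.4% of the positions 1 kb away, 11.4% at 10 kb and 4.47% at 500 kb. At Wdr5 peaks found in no list, coverage began at 16.3% and was 9.92% at 1 kb, 5.61% at 10 kb and 4.20% at 500 kb. At 500 kb all 4 classes of Wdr5 peaks had nearly the same coverage, 4.20% to 4.59%. Wdr5 covered 55.0% of the centres of Menin peaks found in 2 lists, 30.3% at 1 kb, 4.45% at 10 kb and 3.11% at 500 kb. Replicated peaks without a partner in the other full list lay a median of 6030 bp (Wdr5) and 3189 bp (Menin) from the nearest one.

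**Figure D4:**
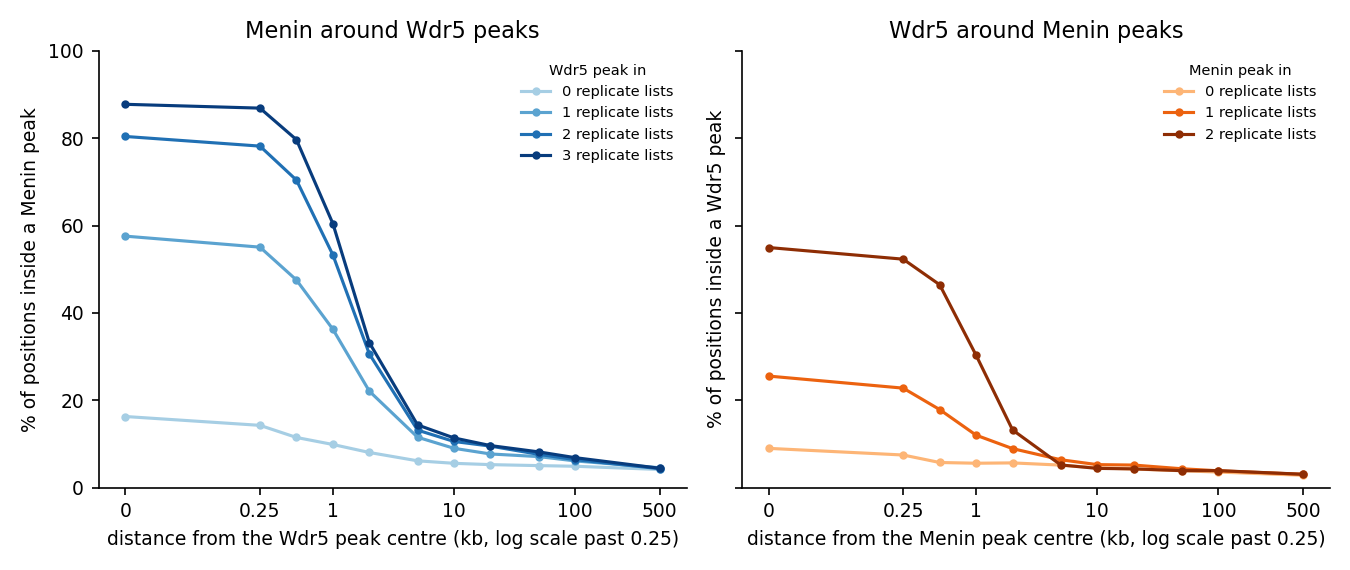
Lines give the percentage of positions that lie inside a pooled Menin peak at a given distance from Wdr5 peak centres (left), and inside a pooled Wdr5 peak around Menin centres (right), by the number of replicate lists that hold the central peak; the distance axis is logarithmic past 0.25 kb. The classes differ at the centre and come together beyond 10 kb, at 4.20% to 4.59% for Menin and 2.88% to 3.11% for Wdr5 at 500 kb.

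The share varied between chromosomes. For full lists, the share of Wdr5 peaks at Menin ran from 23.6% on chromosome 15 to 40.9% on chromosome 7. For replicated peaks it ran from 46.9% on chromosome 7 to 75.8% on chromosome 1, with a median of 66.8%. Chromosome 7 was thus the highest in the full lists and the lowest among replicated peaks, of which it held 213 for Wdr5. The share of pooled Wdr5 peaks that were replicated was likewise lowest on chromosome 15 (5.95%) and highest on chromosome 7 (12.3%). Its part in the full-list range was not tested. For replicated Menin peaks the shares at Wdr5 were 29.5% (chromosome 18) to 42.4% (chromosome 11).

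The peaks of the 5 replicate lists, taken without the pooled lists, merged into 29615 regions. Both factors were present in 6943 (23.4%), Wdr5 alone in 4167 and Menin alone in 18505, and all 5 lists met in 1805 regions. Of the 2570 regions held by 3 Wdr5 lists, 70.2% were in both Menin lists, 17.7% in 1 and 12.0% in none. Of the 6204 regions held by a single Wdr5 list, 27.5% were in both Menin lists and 54.0% in none. Of the 9033 regions held by both Menin lists, 46.6% were in no Wdr5 list, 18.9% in 1, 14.5% in 2 and 19.98% in 3. Regions of all Wdr5 lists were thus mostly also Menin regions, while close to equal numbers of the regions of both Menin lists had and lacked Wdr5.

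Other proteins of the series gave readouts that took no part in defining these classes. They were MLL1, the H3K4 methyltransferase whose complex contains both Wdr5 and Menin; ING1, a reader of H3K4 methylation in Sin3 deacetylase complexes; LSD1, an H3K4 demethylase; and MLL3, a methyltransferase mostly of enhancers. ING1 was mapped with an antibody to Flag in stable cells that ectopically express a Flag-tagged ING1, so its lists come from other cells than those of Wdr5 and Menin. ING1 and LSD1 were mapped again in myotubes, made in 2% horse serum over 96 h, as was Sin3A, the scaffold of the Sin3 complex, by its sample labels. The design text of the series places Sin3A in growing myoblasts instead; the sample labels were followed, and this doubt bears on every Sin3A value. LSD1 and MLL3 had a single list each and no replicate check. The 2 ING1 replicates in myoblasts were very unequal, at 8.09% and 67.3% of the regions where all 5 lists met. The MLL1 samples name Menin in their source label and MLL1 as the antibody, and the antibody was followed, a doubt that bears on every MLL1 value beside Menin.

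MLL1, ING1 and LSD1 in myoblasts were each concentrated where both factors met. MLL1 lay at 55.1% of the replicated Wdr5 peaks shared with replicated Menin and at 13.6% of the others (odds ratio 7.78, and 7.44 within 10 classes of peak width). For replicated Menin peaks it was 55.4% of the shared and 38.3% of the others (odds ratio 2.00, and 1.70 within width classes). ING1 in myoblasts lay at 78.9% and 44.9% of the shared and other Wdr5 peaks and at 78.5% and 39.3% of the Menin peaks (odds ratio for Menin 5.65, and 5.22 within width classes). LSD1 in myoblasts lay at 50.9% and 27.8% for Wdr5 and at 51.3% and 20.8% for Menin (odds ratios 2.69 and 4.01). At Menin peaks the odds ratio for MLL1 was thus below those for ING1 and LSD1. MLL3 differed in direction between the factors, with 28.7% of shared and 32.2% of other peaks for Wdr5, and 38.1% and 32.6% for Menin.

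The same contrast held in each replicate list. In the Wdr5 lists MLL1 lay at 38.8%, 40.3% and 40.6% of the peaks shared with pooled Menin and at 4.62%, 6.34% and 5.01% of the rest. In the Menin lists it lay at 37.3% and 41.0% of the peaks shared with pooled Wdr5 and at 7.27% and 11.1% of the rest. The difference between shared and other peaks averaged 34.6 ± 0.862 points for Wdr5 (n = 3) and 30.0 ± 0.117 points for Menin (n = 2), and the groups did not overlap (exact permutation test, two-sided p = 0.2, the smallest possible, adjusted p = 0.467 over the 7 lists compared). For ING1 in myoblasts the difference was 44.9 ± 1.95 and 45.0 ± 2.48 points (exact p = 0.8, adjusted 0.933), and for LSD1 in myoblasts 25.2 ± 1.40 and 25.7 ± 1.06 points (exact p = 1.0, adjusted 1.0). Every one of the 7 lists except MLL3 was at more of the shared than of the other peaks in 5 of 5 replicate lists. MLL3 was at fewer of the shared peaks in 5 of 5, by -1.95 ± 2.11 points on average for Wdr5 and -4.43 ± 0.089 for Menin, while the full pooled lists gave the opposite sign (25.1% against 20.8% for Wdr5 and 29.9% against 28.8% for Menin).

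The lists labelled as myotubes showed the same direction. Sin3A lay at 90.9% of shared and 65.7% of other replicated Wdr5 peaks, and at 90.6% and 48.6% of the Menin peaks. ING1 in myotubes lay at 86.6% and 58.7% for Wdr5 and at 86.2% and 41.1% for Menin. LSD1 in myotubes lay at 50.9% and 26.0% for Wdr5 and at 52.9% and 26.8% for Menin. The differences between shared and other peaks in the replicate lists averaged 47.1 ± 5.34 points (Wdr5) and 53.7 ± 1.47 points (Menin) for Sin3A. The difference between the factors was -6.64 points (exact permutation test, two-sided p = 0.4, adjusted p = 0.56), where 0.2 is the smallest p possible. With an overlap of 50% of the shorter peak it was -7.92 points (exact p = 0.2) and the groups did not overlap, and for peaks within 500 bp it was 1.52 points (exact p = 0.8).

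The shares differed with how well the partner was supported. Among replicated Wdr5 peaks, MLL1 lay at 7.81% of the 525 with no Menin, at 8.71% of the 287 with Menin in the pooled list alone, at 18.9% of the 848 with Menin in 1 replicate list and at 55.1% of the 3221 with Menin in 2. ING1 in myoblasts went through 27.6%, 42.9%, 56.3% and 78.9% in the same classes. Among replicated Menin peaks, MLL1 lay at 21.2% of the 1971 with no Wdr5, at 43.9% of the 1743 with Wdr5 in the pooled list alone, and at 52.6%, 54.5% and 56.0% with Wdr5 in 1, 2 and 3 replicate lists. ING1 went through 16.0%, 44.2%, 61.4%, 75.8% and 80.5%. MLL1 was thus already near its highest share at Menin peaks with a single Wdr5 list, whereas ING1 was higher with each further list.

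Width was held within a narrow range by keeping only regions of 1 to 2 kb among those merged from the 5 replicate lists. In regions of 3 Wdr5 lists, MLL1 lay at 12.0% with no Menin list (117 regions, interval 6.7 to 19.3), at 16.1% with 1 (286 regions, 12.0 to 20.9) and at 45.0% with 2 (753 regions, 41.4 to 48.7). In regions of 2 Menin lists, it lay at 27.3% with no Wdr5 list (1864 regions, 25.3 to 29.4) and at 42.8%, 42.0% and 45.0% with 1, 2 and 3. The last 3 values had overlapping intervals, from 37.9 at the lowest to 48.7 at the highest. At each number of Wdr5 lists, MLL1 lay at more of the regions in 2 Menin lists than of those in 1, with separate intervals. Between 0 and 1 Menin list, its intervals overlapped at 1 and at 3 Wdr5 lists and were separate at 2. Between 0 and 1 Wdr5 list they were separate at 1 and at 2 Menin lists, and beyond the first Wdr5 list they overlapped. These intervals cover counting error only, and regions are not independent replicates.

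ING1 differed along both factors. At regions of 1 to 2 kb with 2 Menin lists, it lay at 27.3%, 56.4%, 68.9% and 76.5% with 0, 1, 2 and 3 Wdr5 lists, and no 2 neighbouring intervals overlapped. At regions with 3 Wdr5 lists, it lay at 57.3%, 65.7% and 76.5% with 0, 1 and 2 Menin lists, where the intervals of the first pair overlapped (47.8 to 66.4 and 59.9 to 71.2). The 2 ING1 replicates were unequal in level. Over all widths, at 2 Menin lists with 0 to 3 Wdr5 lists, ING1 replicate 1 lay at 0.878%, 3.05%, 6.19% and 8.09%. ING1 replicate 2 lay there at 16.8%, 45.6%, 62.6% and 67.3%, in the same order. LSD1 in myoblasts lay at 12.0%, 31.5%, 44.0% and 46.3% with 0 to 3 Wdr5 lists beside 2 Menin lists. It lay at 37.6%, 46.2% and 46.3% with 0 to 2 Menin lists beside 3 Wdr5 lists, with overlapping intervals. Over all widths, each replicate of MLL1 gave the same order along the number of Menin lists. At regions of 3 Wdr5 lists with 0, 1 and 2 Menin lists, MLL1 replicate 1 lay at 2.59%, 8.33% and 37.0%, and the far shorter replicate 2 at 0%, 0.22% and 7.26%. At regions of 2 Menin lists with 0 to 3 Wdr5 lists, replicate 1 lay at 15.2%, 33.6%, 36.6% and 37.0%. Replicate 2 lay there at 1.21%, 4.16%, 6.11% and 7.26%, higher with each further Wdr5 list.

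**Figure D5:**
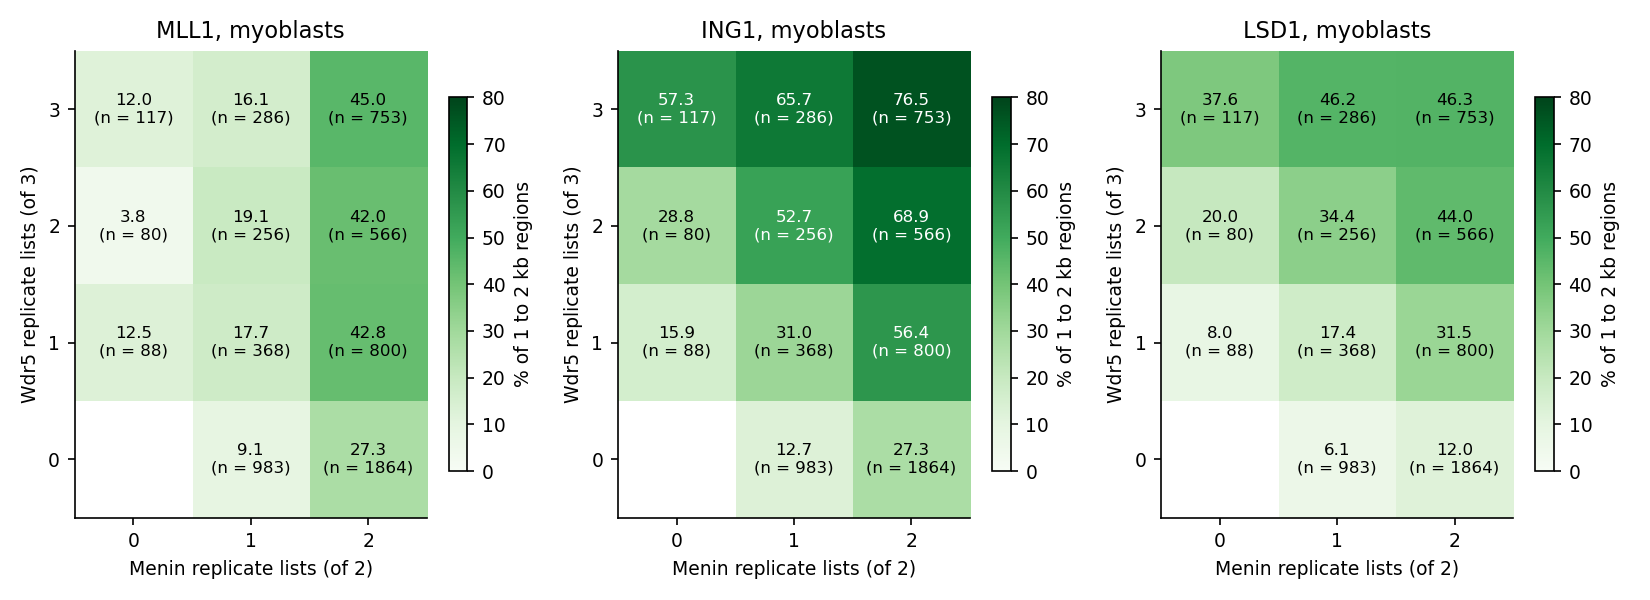
Each cell gives the percentage of regions of 1 to 2 kb that overlap a peak of MLL1 (left), ING1 (middle) or LSD1 (right) in myoblasts, by the number of Menin lists (horizontal axis, 0 to 2) and Wdr5 lists (vertical axis, 0 to 3) that hold the region; the cell without either factor is empty. MLL1 runs from 12.0% to 45.0% in the top row and from 27.3% to 45.0% in the right column, and ING1 differs along both axes.

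The widest sites of each class are given by their mm9 coordinates. Gene names and sequences are not given, since no mm9 annotation or genome was used here. Of the 8 widest regions where a Wdr5 peak in 3 lists met a Menin peak in 2, the broadest was chr15:102772057-102820089, where 19 pooled Wdr5 peaks covered 86.6% of 48033 bp and the single pooled Menin peak covered all of it. In the replicate lists Wdr5 covered 30.0%, 12.1% and 8.72% of that region and Menin 95.7% and 97.3%. MLL1 covered 87.9% of it. At chr11:120089597-120105324, the narrowest of the 8, Wdr5 covered 34.5%, 18.2% and 13.5% in its replicates, Menin 95.5% and 98.1%, and MLL1 62.2%.

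A pair of the broad shared regions differed from the rest in their company. At chr15:76019585-76038574 (18990 bp), pooled Wdr5 covered 89.9% and pooled Menin 92.8%, while MLL1 covered 5.23% and LSD1 in myotubes 79.9%. The Menin replicates covered 34.6% and 34.7% of it, below their cover of the other 7 regions, and the Wdr5 replicates 15.8%, 13.8% and 10.6%. At chr2:173084737-173101716 (16980 bp), MLL1 covered 5.995% and LSD1 in myotubes 59.8%. In the other 6 regions MLL1 covered 62.2% to 87.9% and LSD1 in myotubes 0% to 8.71%. At chr4:88574286-88592024 the factors were uneven, with 2 Wdr5 peaks over 18.1% of a region that pooled Menin covered whole and MLL1 to 66.8%.

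In the full pooled list, 70.7% of Wdr5 peaks met no pooled Menin peak. Among Wdr5 peaks found in 3 replicate lists, sites free of Menin were uncommon and of modest width. Of these 2571 peaks, 149 (5.80%) met no Menin peak in the pooled or either replicate list. The widest was chr8:4675943-4678992 (3050 bp), with Wdr5 over 61.3%, 41.8% and 50.6% in its replicates, ING1 in myoblasts over 43.0%, MLL3 over 65.8%, and the nearest Menin peak 10734 bp away. The second, chr19:7014775-7017556, had ING1 over 60.3% and Sin3A in myotubes over 53.8%. The third, chr1:133586169-133588815, met none of the 7 other lists. The fourth lay on chromosome 18 (2609 bp), with ING1 over 70.4% and LSD1 in myotubes over 64.9%. The fifth was chr3:87688126-87690720, with ING1 over 42.8%. None of these 5 sites met an MLL1 peak, and MLL1 lay at only 7.81% of all 525 replicated Wdr5 peaks without a pooled Menin peak.

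In the full pooled list, 75.8% of Menin peaks met no pooled Wdr5 peak. Of the 8641 Menin peaks in 2 lists, 1837 (21.3%) were free of Wdr5, a larger share than for Wdr5 under a different replicate rule. The widest was chr9:57791571-57804626 (13056 bp), with Menin over 78.7% and 57.7% in its replicates and no ING1 or MLL1 peak. The next were chr15:80930391-80939826, where MLL1 covered 14.5%, and chr15:36709251-36718661, where MLL3 covered 100% and LSD1 in myotubes 99.6%. They were followed by chr1:148369184-148378508, where MLL1 covered 27.9%, and chr2:20860764-20869638. At these last 2 sites the Menin replicates covered 72.1% and 77.2%, and 21.5% and 7.90%. ING1 in myoblasts covered 4.96% of the second site and 0% of the other 4. It lay at 16.0% of all 1971 replicated Menin peaks without a pooled Wdr5 peak.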

How the data were processed

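The deposited values were peak boundaries (chromosome, left and right end in bp), per the file headers, with no height, fold or read count. Depth is therefore unknown, and the 3 and 2 replicate lists limit the precision. Per the submitters' processing notes, the tools were Bowtie 0.12.9, SAMtools 0.1.19 and bedtools 2.17.0, in roles not given, and the builds mm9 and NCBIM37. How peaks were called and replicates pooled is not given in the sources used here. Input samples were not analysed here. Left ends were taken to be 0-based and 1 was added to give the printed starts.

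Overlaps were computed for chromosomes 1 to 19 with numpy 2.4.6 and scipy 1.17.1. They were checked against bedtools 2.31.1 and tested on simulated data. Peaks were shared at 1 bp or more. Values per list were compared by exact permutation over 10 arrangements of 3 and 2 labels. Intervals on shares are exact (Clopper-Pearson) at 95%. Named regions were the 8 widest shared regions and the 5 widest peaks of each factor that met no peak of the other. Alternatives were other overlap rules, equal lengths, unions of replicate lists, chromosome X, omission of each list and a replicate block. The restriction to regions of 1 to 2 kb, and the omission of lists and the block for the other factors, were added after seeing the data. The members, classes and lists were chosen with earlier results of these data known.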

Additional observations from a re-analysis of the deposited data

Results flagged for a closer look

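Peaks outside the autosomes took no part in the comparisons. The pooled Wdr5 list had 1125 peaks on chromosome X and the Menin list 1116. Sharing there was 22.2% (exact binomial 95% interval 19.8 to 24.8) for Wdr5 and 22.0% for Menin. Of the X peaks, 39 (3.47%) were found in 2 or more replicate lists for Wdr5, against 8.40% of the autosomal peaks, and 116 (10.4%) for Menin, against 12.5%. On the mitochondrial genome there were 14 Wdr5 and 13 Menin peaks, covering 6438 and 5085 bp and met in 3 of 3 and 2 of 2 replicate lists. No group held enough samples for a test of outlying samples.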

How the results depend on the processing

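With 3 against 2 lists no test could pass 0.05, so stability here concerns size and direction. The share of pooled Wdr5 peaks at Menin (29.3%) was 38.0% in the wider 50% of each list and 63.9% for unions of the replicate lists. Unions gave 76.3%, 64.2% and 64.2% without Wdr5 replicates 1, 2 and 3, and 51.0% and 55.5% without Menin replicates 1 and 2. For pooled Menin peaks at Wdr5 (24.2%) they gave 20.4% to 38.8%, the highest without Menin replicate 1. For replicated Wdr5 peaks (66.0%) the share was 89.2% against the full pooled list of Menin, 44.6% at equal length and 68.3% to 76.6% without 1 replicate. For replicated Menin peaks (37.6%) it was 77.2%, 43.7% and 22.8% to 31.2%, the lowest without Menin replicate 2. Without a Menin replicate, support meant the 1 list left. The likeness of replicate lists within over between factors (5.99 points) ranged from -1.76 to 10.9 without 1 replicate, and turned sign without Wdr5 replicate 1. The Wdr5 minus Menin gap in other factors at shared over other peaks, near 0 for ING1 and LSD1 in myoblasts, turned sign for peaks within 500 bp to 6.67 and 3.70, and likewise for ING1 (4.05) and Sin3A (1.52) in myotubes. Without 1 replicate it ran from -1.89 to 1.63 for ING1 and from -1.21 to 0.287 for LSD1 in myoblasts. MLL3 at shared minus other Wdr5 peaks (4.30 points) was -3.48 for replicated peaks and -1.95 in single lists. At Menin peaks (1.09) it was -0.394 within 500 bp, -4.43 in single lists and -6.02 within width classes. In all, 75 of 85 alternatives of tested values kept their direction, and the cause of the other 10 was not tested. The labels do not say that replicate numbers mark a shared batch, and same-numbered lists of Wdr5 and Menin shared 61.9% of the shorter list against 58.8% for the other numbers. With the number as a replicate block the differences were -12108 peaks, -88.5 bp and 24.9 points in the share at the other factor, and 0.953 points for ING1 in myoblasts (exact p 0.5 or more, the smallest possible being 0.5).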
